A study of Homo sapiens with 6 samples.

Results

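Scavenger and mannose receptors are surface proteins with which macrophages bind and take up modified lipoproteins, microbes, cell debris and haemoglobin complexes. The 6 genes described here are CD163, MRC1, MSR1, STAB1, MARCO and CD36, and each was represented by a fixed window of the human genome (build hg19) that holds the gene and its flanks. MRC1 had 2 windows, because hg19 carries its region in duplicate, so there were 7 windows with a summed length of 790.0 kb. All H3K27ac peaks that overlapped a window were taken, which gave 28 of 56420 peaks in M2 macrophages and 7 of 31444 in THP-1 cells. The rule takes peaks by position alone, but the genes were chosen with earlier results of these data known.

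THP-1 is a human monocytic leukaemia line, here grown in culture medium with fetal bovine serum, and M2 is the label of the macrophage samples. The M2 samples carry the same growth description, and neither the starting cells of the macrophages nor the agent that polarised them is named in the labels. Each cell type gave 1 H3K27ac library, 1 for the factor YY1 and 1 of input, which makes 6, and the values here come from the H3K27ac peak list of each cell type. With 1 library per cell type, the differences below have no replicate check, no statistical test and no p-value.

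H3K27ac is histone H3 acetylated at a lysine of its tail, a mark of active promoters and enhancers. Some, but not all, genes of scavenger receptors are switched on only as monocytes mature into macrophages. Enhancers of such genes are known to be bound by the myeloid factor PU.1, together with AP-1 and C/EBP factors. CD163 and MRC1 (CD206) are also widely used as surface markers of alternatively activated (M2) macrophages. A peak is a stretch in which more H3K27ac fragments were sequenced than in the local background. Its fold enrichment is the authors' value at the summit, the position of the highest fragment pileup. Fold enrichment and -log10 q are used here only to describe and rank peaks within a list. No hg19 gene annotation was used, so peaks were placed in windows and not at gene starts, exons or introns.

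In 5 of the 7 windows the M2 list covered more sequence than the THP-1 list, and the other 2, both of MRC1, held no peak in either list. Over the genome, 81.8% of tiles of 100 kb with a peak in either list were likewise covered further by M2 peaks. M2 peaks covered 23.2 kb of the windows and THP-1 peaks 3.80 kb, a ratio of 6.12. Over the whole lists the covered lengths were 61.3 and 27.95 Mb, a ratio of 2.19. CD163 and MSR1 had M2 peaks and no THP-1 peak. STAB1 and MARCO had 1 THP-1 peak each. CD36 held the other 5 of the 7 THP-1 peaks, and without its window the ratio of covered lengths was 19.0.

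**Figure D1:**
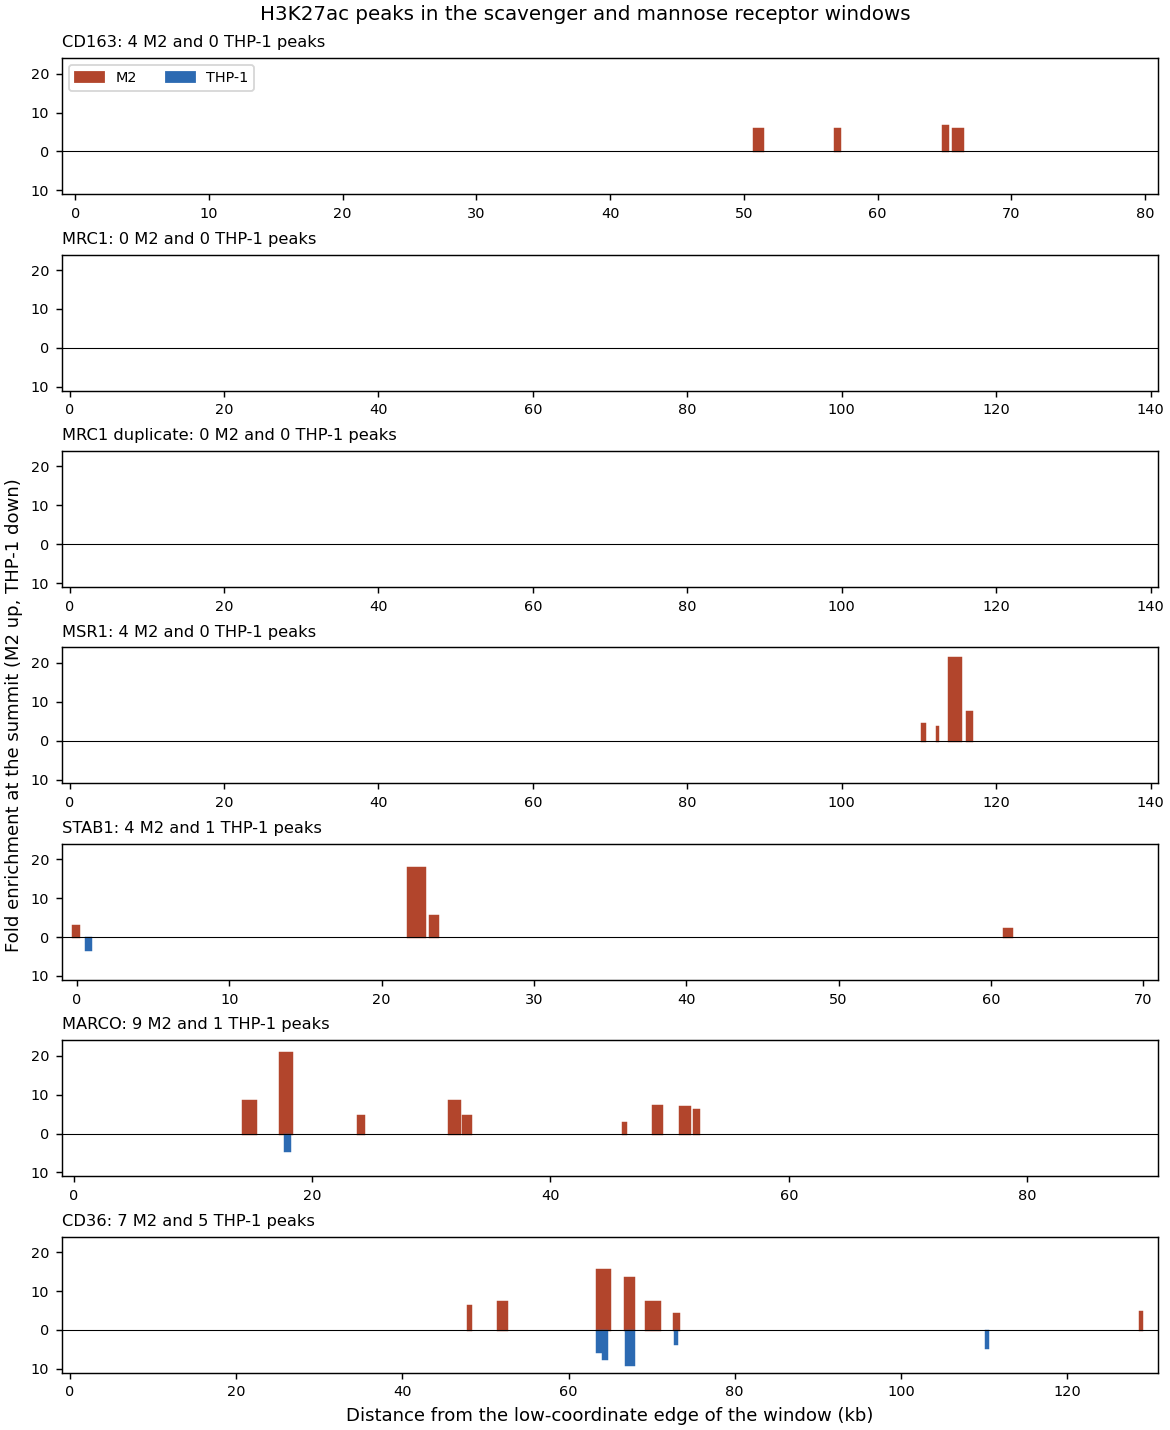
H3K27ac peaks in the 7 windows, drawn to scale by distance from the low-coordinate edge of each window (kb, horizontal axis). Bar height is fold enrichment at the summit, with M2 peaks drawn upward and THP-1 peaks downward, and bar width is peak width; THP-1 peaks appear in the windows of STAB1, MARCO and CD36 only.

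More M2 than THP-1 coverage is therefore the common case in these data. At least 2 times as much M2 as THP-1 coverage was seen in 61.8% of the tiles with a peak and in all 5 windows that held a peak, where the lowest ratio was 2.54 at CD36. An M2 peak and no THP-1 peak was found in 29.4% of these tiles and in 2 of the 5 windows. The tiles are not centred on genes and are not of the windows' size, so they give only a scale for these counts. None of the 7 windows had more THP-1 than M2 coverage.

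**Figure D2:**
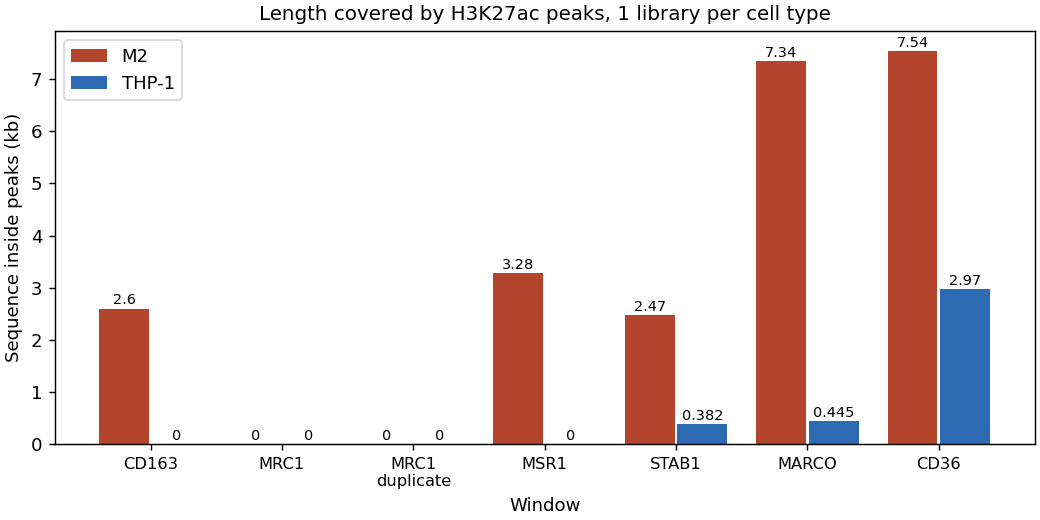
Length of sequence inside H3K27ac peaks (kb, vertical axis) in each window (horizontal axis), 1 bar per cell type and 1 library behind each bar. M2 coverage ran from 2.47 kb at STAB1 to 7.54 kb at CD36 in the windows that held a peak, and THP-1 coverage from 0 to 2.97 kb.

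Of the 28 M2 peaks, 24 overlapped no THP-1 peak, which is 85.7% (exact 95% interval 67.3 to 96.0). In the whole M2 list the share was 63.0%. Of the 7 THP-1 peaks, 2 overlapped no M2 peak, or 28.6% (3.67 to 71.0), against 24.7% of the whole THP-1 list. The intervals cover counting error only, and peaks of 1 locus are not independent of each other. The THP-1 share was close to its background, and its interval spans most of the possible range.

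The starts of 3 of these genes are shown with the letters of motifs for factors that act in macrophages. Their windows held M2 peaks, and each gene had 1 matched entry. RefSeq entries on GRCh38.p14 were matched for 4 of the 6 genes, and not for MRC1 and MSR1. CD36 had 6 entries, which are counted below but not shown. Each entry runs from 250 bases before to 50 bases after the start, 5′ to 3′ on the gene's strand. They were not placed on the hg19 peaks. Capitals mark the letters searched on both strands: GAGGAA, the core of a PU.1 site, TGANTCA for AP-1, TTNNGCAA for C/EBP and, for STAT6, TTC and GAA with any 4 bases between them. N stands for any base, and no match overlapped another in these sequences.
CD163 (minus strand): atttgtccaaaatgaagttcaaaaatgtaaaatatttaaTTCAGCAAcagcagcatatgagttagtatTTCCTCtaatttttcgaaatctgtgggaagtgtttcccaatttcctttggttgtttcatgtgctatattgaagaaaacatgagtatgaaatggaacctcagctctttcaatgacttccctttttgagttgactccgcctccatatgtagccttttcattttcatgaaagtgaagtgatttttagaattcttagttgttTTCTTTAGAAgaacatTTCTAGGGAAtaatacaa
STAB1 (plus strand): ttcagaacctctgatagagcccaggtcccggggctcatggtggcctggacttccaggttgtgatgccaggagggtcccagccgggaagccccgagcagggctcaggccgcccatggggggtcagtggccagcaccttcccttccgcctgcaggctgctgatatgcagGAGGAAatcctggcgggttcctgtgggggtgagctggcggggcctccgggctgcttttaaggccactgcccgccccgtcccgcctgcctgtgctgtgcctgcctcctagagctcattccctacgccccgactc
MARCO (plus strand): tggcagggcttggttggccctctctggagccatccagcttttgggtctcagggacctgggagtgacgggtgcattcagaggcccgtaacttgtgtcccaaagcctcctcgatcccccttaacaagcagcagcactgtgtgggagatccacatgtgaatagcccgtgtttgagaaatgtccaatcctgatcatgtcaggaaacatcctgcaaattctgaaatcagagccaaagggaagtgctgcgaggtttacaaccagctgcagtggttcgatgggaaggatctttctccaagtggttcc
In capitals, the CD163 sequence has a C/EBP match, a PU.1 match on the opposite strand and a pair of STAT6 matches after the start. The STAB1 sequence has a PU.1 match and the MARCO sequence no match. Of the 6 CD36 entries, some of which overlap, 4 hold a PU.1 match, 2 a STAT6 match, 1 an AP-1 match and none a C/EBP match. Both STAT6 matches are the same site, held by overlapping entries, and these entries also share a PU.1 match. Among all 35116 entries, 27.9% hold the PU.1 letters, 7.71% those of AP-1, 10.5% those of C/EBP and 6.44% those of STAT6. A match describes the letters and not a bound site.

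CD163 encodes the scavenger receptor that takes up complexes of haemoglobin and haptoglobin. Its window on chromosome 12 (7600001 to 7680000) held 4 M2 peaks with 2.60 kb of sequence and no THP-1 peak. The first lay at 7650685 to 7651405, with a fold enrichment of 6.14. The second lay at 7656718 to 7657224 (5.94-fold). The last 2 were neighbours at 7664790 to 7665297 (6.77-fold) and 7665536 to 7666399 (6.07-fold). The 4 folds were alike and somewhat above the median fold of the M2 list, 5.42: each exceeded between 57.9% and 67.9% of the M2 peaks. By -log10 q (8.20 to 14.2) the peaks ranked lower, above 32.7% to 51.5% of the list. Over their summits 20 to 31 fragments were recovered, against a median of 39 in the list. All 4 lay in the high-coordinate part of the window, from 51.1 to 65.8 kb from its low edge. CD163 is read from the minus strand, so that is the side on which its transcription starts, though the peaks were not placed on the start sequence given before. No THP-1 peak was listed between 257 kb below and 27.8 kb above the window. The THP-1 peak above it, at 7707764 to 7709842 (4.87-fold), overlapped an M2 peak (17.5-fold) on the side of APOBEC1, the neighbouring gene in RefSeq order.

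MSR1 encodes the class A scavenger receptor (CD204), a trimeric protein that binds modified low-density lipoprotein. Its window on chromosome 8 (15940001 to 16080000) held 4 M2 peaks with 3.28 kb of sequence and no THP-1 peak. They formed 1 compact group of 6541 bp, from 110.6 to 116.6 kb from the low edge by summit. One peak dominated the group, at 16053751 to 16055476, with a fold enrichment of 21.5, above 99.4% of M2 peaks by fold and the highest of all 28. Its local background was at the genome-wide level, and 74 fragments were recovered over its summit. The upper quartile of the M2 list was 77 fragments, so its rank by fragments was lower than by fold. The other 3 had folds of 4.54 (16050322 to 16050742), 3.78 (16052144 to 16052521) and 7.50 (16056104 to 16056862). MSR1 is read from the minus strand, so this group too lay on the side where its transcription starts.

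The MSR1 group stood far from other M2 peaks, above all on its low side. The nearest M2 peak below it ended at 13008522, which leaves 3.04 Mb without an M2 peak, and the nearest above it was 162 kb away. Only 37 of the 56397 intervals between neighbouring M2 peaks were as long as the lower one or longer, and the median interval was 9.76 kb. That is a count of intervals, and the share of sequence they hold was not computed. The THP-1 list held 1 peak in the same stretch. RefSeq order places TUSC3 and SGCZ on the low side of MSR1 and FGF20 on the high side.

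STAB1 encodes stabilin-1 (CLEVER-1), an endocytic receptor of macrophages and of sinusoidal and lymphatic endothelium. Its window on chromosome 3 (52510001 to 52580000) held 4 M2 peaks and 1 THP-1 peak, with 2.47 and 0.382 kb of sequence. The M2 peak at 52531682 to 52532879 had a fold enrichment of 18.1, above 98.6% of the M2 list, and the highest -log10 q of the 28 peaks, 82.2. A second M2 peak followed at 52533136 to 52533728 (5.81-fold). No THP-1 peak was listed within 20781 bp of the stronger peak.

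The remaining STAB1 peaks lay at the ends of the window. An M2 peak at 52509671 to 52510107 (3.23-fold), whose summit is outside the window, and the THP-1 peak at 52510519 to 52510900 (3.21-fold) were 411 bp apart and did not overlap. They lay on the side of NISCH, the neighbour of STAB1 in RefSeq order. The last M2 peak, at 52570814 to 52571384, had the lowest fold of the 28 (2.31) and lay on the side of NT5DC2 and UQCC5. Its low fold went with a high background: 92 fragments were recovered over the summit, against a local background 17.03 times the genome-wide level. Without these edge peaks STAB1 had M2 peaks only.

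MARCO encodes a class A scavenger receptor with a collagenous stalk that binds bacteria and inhaled particles, known chiefly from alveolar and marginal zone macrophages. Its window on chromosome 2 (119680001 to 119770000) held 9 M2 peaks and 1 THP-1 peak, with 7.34 and 0.445 kb of sequence, a ratio of 16.5. It was the window with the highest M2 density, 8.16% of its length, which exceeds 88.1% of the tiles that hold a peak. The M2 peaks were spread over 38344 bp, with folds from 2.97 to 20.97 and widths from 331 to 1184 bp. The strongest by fold, at 119697206 to 119698292 (20.97-fold, above 99.3% of the list by fold), was also the only one that overlapped a THP-1 peak. The widest was its neighbour at 119694141 to 119695324 (8.65-fold).

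The THP-1 peak of MARCO lay wholly inside that M2 peak, at 119697676 to 119698120 (4.37-fold). Both summits were within 39 bp of each other. The number of fragments over a summit, recovered from fold enrichment and p-value, was 72 in M2 and 36 in THP-1. Relative to the genome-wide background of its own list, the summit stood at 31.3 in M2 and 20.4 in THP-1, a ratio of 1.53. Over 14052 shared pairs of the whole lists in which both values were recovered, the ratio had a median of 0.937 (interquartile range 0.648 to 1.37). The local background was 4.23 times the genome-wide level at the THP-1 peak and at that level at the M2 peak. Fold enrichment divides by the local background, so the folds of 20.97 and 4.37 are not a ratio of signals.

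The other 8 MARCO peaks were in the M2 list alone. Below the strongest peak there was 1, and above it they formed groups around 24.02, 32.0 to 32.8 and 46.2 to 52.1 kb from the low edge of the window. Their -log10 q ran from 2.89, among the lowest of the list, to 29.5 at 119730741 to 119731743 (7.06-fold). MARCO is read from the plus strand. A further M2-only group lay below the window, with its nearest peak at 119671888 to 119673138 (8.28-fold), 6.86 kb outside. The THP-1 list held no other peak from 832 kb below to 251 kb above the window.

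CD36 encodes the class B scavenger receptor that binds oxidised low-density lipoprotein, long-chain fatty acids and thrombospondin. Its window on chromosome 7 (80200001 to 80330000) held 7 M2 and 5 THP-1 peaks, with 7.54 and 2.97 kb of sequence. The ratio of 2.54 was the lowest of the windows and close to the 2.19 of the whole lists. CD36 was also the window with the highest THP-1 density, 2.28% of its length, above 76.3% of the tiles that hold a peak.

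Peaks of both lists met at 3 sites of CD36, all between 63 and 73 kb from the low edge of the window. At the first, 1 M2 peak at 80263336 to 80264984 (15.6-fold) spanned 2 THP-1 peaks, at 80263345 to 80263921 (5.79-fold) and 80264073 to 80264599 (7.52-fold). The M2 summit lay 45 bp from the summit of the second THP-1 peak and 677 bp from that of the first. At the next site the M2 peak at 80266657 to 80267838 (13.5-fold) and the THP-1 peak at 80266748 to 80267906 (8.98-fold) were almost the same stretch, with 1091 bp in common and summits 122 bp apart. This THP-1 peak had the highest fold of the 7 and exceeded 97.4% of the THP-1 list. The third site was weak in both, 4.41-fold in M2 (80272546 to 80273343) and 3.63-fold in THP-1 (80272720 to 80273064), with 15 and 10 fragments over the summits.

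The other CD36 peaks were in 1 list each. In M2 they were at 80247760 to 80248244 (6.36-fold), 80251378 to 80252556 (7.50-fold), 80269155 to 80270984 (7.35-fold, the widest of the 28 at 1830 bp) and 80328655 to 80329067 (4.93-fold). The only THP-1 peak of CD36 without an M2 partner lay at 80310173 to 80310532, where the fold enrichment was 4.58 and 16 fragments lay over the summit; the M2 peak closest to it was 18122 bp away. CD36 is read from the plus strand and has several alternative starts, 6 of them in the RefSeq promoter table. A broad M2 peak stood 20.4 kb above the window, towards SEMA3C, at 80350368 to 80354630 (21.9-fold), and no THP-1 peak was listed above the window for 440 kb.

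MRC1 encodes the mannose receptor, a C-type lectin that binds mannose-bearing glycans and is among the most used M2 surface markers. Neither its window on chromosome 10 (17830001 to 17970000) nor that of the duplicate (18080001 to 18220000) held a peak in either list. The windows lay inside a stretch of 566 kb, from 17712430 to 18278446, that held no peak of either list. Stretches of that length were few in number, 669 of the 63158 between neighbouring peaks of both lists together, but they hold 29.2% of the sequence outside peaks. Of the 100-kb tiles, 44.8% held no peak. Fragments from a sequence present in duplicate can be placed in either copy, and the labels do not say how such reads were handled. The lists therefore do not show whether the mannose receptor gene was acetylated, and their silence over it was not tested further. The nearest peaks outside were on the sides of STAM, where M2 peaks ended at 17712429, and of SLC39A12, where the lists shared a site from 18278447.

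Of the M2 surface markers among these genes, CD163 had M2 peaks, and MRC1, whose duplicated region limits what the lists can show, had none. A list of 13 marker genes of cell classes, added after the data were seen, was given hg19 windows set from general knowledge, which were not checked. All 5 myeloid markers (SPI1, CSF1R, CD14, ITGAM and LYZ) had M2 peaks, with 2.96 to 16.5 kb covered and 35.8 kb in sum. In THP-1 4 of them did, with 0 to 5.06 kb and 13.3 kb in sum, and LYZ had none. Of 5 mesenchymal markers, 3 had M2 peaks (COL1A1, TWIST1 and PDGFRB, 0 to 14.3 kb over the list, 20.6 kb in sum), while COL1A2 and COL3A1 had 0 in both lists. In THP-1 TWIST1 and PDGFRB had peaks (0 to 4.16 kb, 8.08 kb in sum). PDGFRB adjoins CSF1R and its window may hold peaks of that gene. The highest M2 fold in the PDGFRB window was 23.1, above the highest of each myeloid marker (9.33 to 13.8). That peak was not in the CSF1R window, where the highest M2 fold was 12.9. The lymphoid marker CD3E had 1 M2 peak, of 0.252 kb, and no THP-1 peak, and EPCAM and ALB had none in either list. The part of other cells in the receptor peaks was not tested.

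Peak strength was uneven within the windows. The median fold of the 28 M2 peaks was 6.32, against 5.42 in the whole M2 list, and 19 of them lay above the median. By -log10 q the order was different, with 11 of 28 above the median of the list. The strongest M2 peak of MSR1, STAB1 and MARCO each lay in the highest decile of the list by both measures, and by fold those at 80263336 and 80266657 of CD36 did as well. The CD163 window had no M2 peak in the highest decile. Fold enrichment divides by the local background. Where recovered, its median at the summits of the 28 M2 peaks was 1.17 times the genome-wide level, against 2.50 over the whole M2 list. Their median number of fragments was lower than that of the list, 27.5 against 39. Of the 7 THP-1 peaks, 5 were above the median fold of their list (3.67) and 3 above its median -log10 q.

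**Figure D3:**
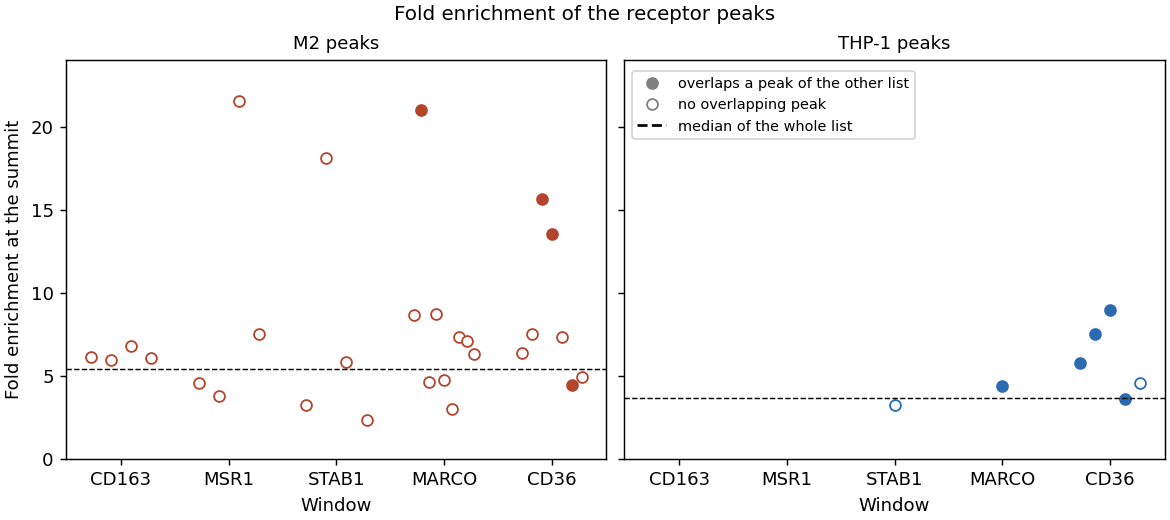
Fold enrichment at the summit (vertical axis) of each peak in the windows (horizontal axis), left for M2 and right for THP-1; filled points overlap a peak of the other list, open points do not, and the dashed line is the median of the whole list. In each of MSR1, STAB1 and MARCO 1 M2 peak stands near 20, while the 4 CD163 peaks sit together near 6.

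Depth bounds what the missing THP-1 peaks can show. Fragments over the summit were recovered for 26 of the 28 M2 peaks and ran from 12 to 106, with a median of 27.5, against a median of 39 over the whole list. In 5 THP-1 peaks they ran from 10 to 36. For 23 of the 24 M2-only peaks the number that the same level over the genome-wide background would give in THP-1 could be computed. It ran from 9.20 to 81.3, with a median of 20.7. The lowest number over any THP-1 summit was 8, so all 23 lay above it, but only 15 reached 16, the lowest decile of THP-1 summits, and 5 reached their median of 39. Those 5 were the strongest peaks of MSR1 and STAB1, the low-fold STAB1 peak beside NT5DC2, and 2 neighbouring MARCO peaks at 119730741 and 119731914. Local background was not taken off these numbers. In M2 it was 17.03 times the genome-wide level at the low-fold STAB1 peak and 3.80 and 3.64 times at the 2 MARCO peaks. At the strongest peaks of MSR1 and STAB1 it was 1 and 2.06 times. For all M2-only peaks, and more so the weaker ones, a THP-1 signal of the same level may or may not have been called, depending on the local background. The 4 of CD163 are among the weaker ones (15.3 to 23.8). The median background at a THP-1 summit was 4.99 times the genome-wide level and at an M2 summit 2.50 times.

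The wider family was described with 17 further scavenger and mannose receptor genes, whose hg19 windows were set from general knowledge and can hold peaks of neighbouring genes. Of these, 10 had peaks in both lists, 6 in M2 only, none in THP-1 only and 1, the hyaluronan receptor LYVE1, in neither. M2 coverage was the larger in 14 genes and THP-1 coverage in 2, and the summed lengths were 73.9 and 28.6 kb, a ratio of 2.58. That ratio was near the 2.19 of the whole lists. The share of 14 in 17 stands beside 81.8% of tiles, but the bases differ. Every tile counted there held a peak, while the 17 genes include LYVE1, which held none.

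The largest M2 coverage was at MERTK, a receptor for dying cells, with 11 M2 peaks over 13.1 kb, of which 10 were without a THP-1 partner, and 2 THP-1 peaks over 0.999 kb. SCARB2, a lysosomal membrane receptor, followed with 10.8 kb, against 4.79 kb in THP-1. SCARB1, the receptor for high-density lipoprotein, was covered to a similar length, 8.85 kb of M2 peaks against 8.76 kb of THP-1 peaks. LRP1, a large endocytic receptor, had 7.72 and 1.21 kb. In THP-1 the largest coverage was at SCARB1 and at MRC2, a collagen-binding relative of the mannose receptor, which had 7.47 kb against 6.62 kb in M2. The other gene with more THP-1 coverage was PLA2R1, also of the mannose receptor family, with 2.69 kb against 1.87 kb. CD163L1, the neighbour and close relative of CD163, had 3 M2 peaks over 1.66 kb and no THP-1 peak.

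**Figure D4:**
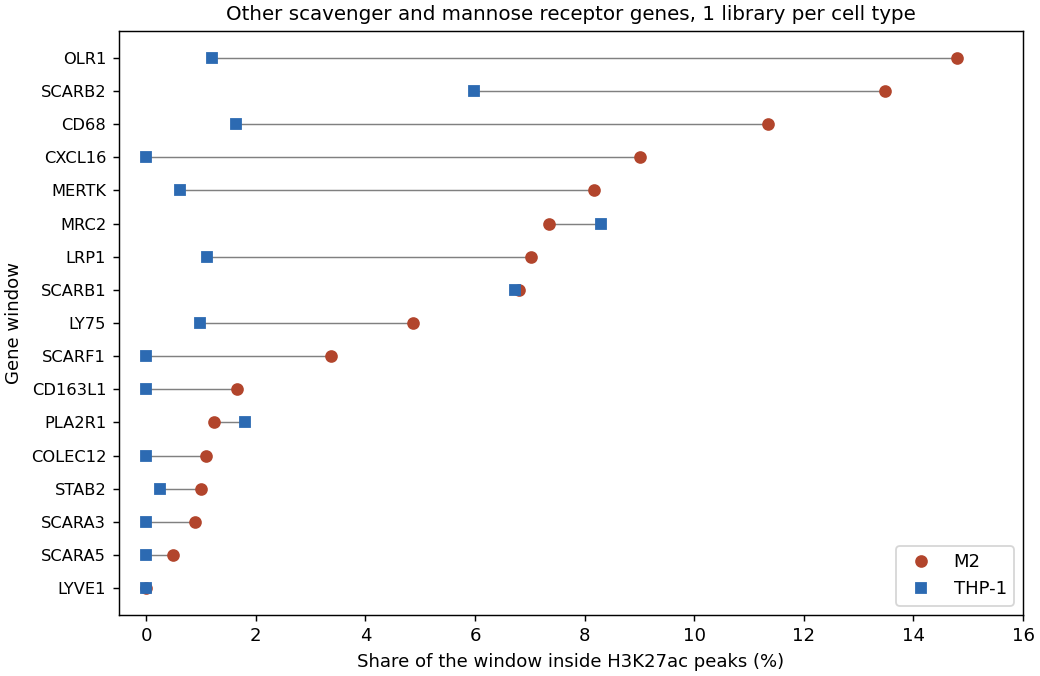
Share of each window inside H3K27ac peaks (%, horizontal axis) for the 17 further genes (vertical axis), circles for M2 and squares for THP-1, 1 library each. The M2 value is the higher in 14 genes, MRC2 and PLA2R1 are higher in THP-1, and LYVE1 is at 0 in both.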

How the data were processed

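Per the submitters' processing notes, Bowtie2, MACS2 version 2.1.0 and build hg19 were used, without settings, and the notes do not say whether input served as control. The peak lists have no header and were read in narrowPeak column order, checked on the values. The fold enrichment (a ratio over local background) and the -log10 p and -log10 q are the authors' deposited values, and the deposited score equals 10 times that -log10 q, cut to a whole number, except in 1 THP-1 peak. The Y chromosome was left out.

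Members are peaks that overlap a window by at least 1 bp, and covered length counts only bases inside it. Peaks sharing at least 1 bp were called shared. Shares carry exact (Clopper-Pearson) 95% intervals. Fragments over a summit were solved from fold and p by the MACS2 relations, with an M2 pileup scale of 0.842 and none for THP-1. Whole numbers (tolerance 0.02) resulted at 99.99% of the M2 peaks and 99.8% of those of THP-1, against 9.36% and 10.8% at a typical other scale, and a single solution for 93.6% and 93.5%. The recovery of fragments was tested on simulated data, and the overlap step on deposited M2 peaks against shifted copies of some of them. Every member gene was named with its peaks, or, above 8 peaks, with counts, ranges, the strongest and the widest. Further genes were named where they had the most coverage, up to 4 per list, and CD163L1 and LYVE1 were added after their values were seen. The members and lists were chosen with earlier results of these data known. The windows of the member and further genes were checked by chromosome and gene length only. Of the 17 further genes, 2, CD163L1 and SCARA3, have a RefSeq model longer than their window. The windows of the marker genes were not checked. Python 3.11.15, pandas 2.3.3 and scipy 1.17.1 were used. The marker list first held a further gene, which is not reported here.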

Additional observations from a re-analysis of the deposited data

How the results depend on the processing

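The M2 coverage exceeded the THP-1 coverage in 5 of 7 windows in every setting tried for that count: a -log10 q of at least 10, summits inside the window, windows widened by 50 kb, an M2 list of the THP-1 length, and, chosen after the data were seen, without the edge peaks of STAB1. The ratio of covered lengths of 6.12 ran from 4.34 (M2 list of the THP-1 length) to 8.00 (-log10 q of at least 10) under these settings and was 19.0 without the CD36 window, also chosen after the data were seen. With the stricter -log10 q the windows kept 16 M2 peaks and 3 of THP-1, and 0% of the latter were without an M2 partner (interval 0 to 70.8). The M2 list of the THP-1 length left 15 M2 peaks, windows widened by 50 kb held 43, and without CD36 there were 2 THP-1 peaks. The share of M2 peaks without a THP-1 partner stayed between 80.0% and 95.2% in all settings tried. At a -log10 q of at least 10, 11 further genes had more M2 coverage, 5 had peaks in both lists (10 before), 8 in M2 only and 4 in neither, and their ratio of covered lengths was 3.63. These counts follow from fewer or more peaks being admitted. The -log10 q cutoff does not treat the lists alike. The median -log10 q was 13.4 in the whole M2 list and 8.41 in that of THP-1, so the cutoff dropped a larger share of THP-1 peaks. Leaving out the edge peaks of STAB1 removed its only THP-1 peak. More M2 than THP-1 coverage under these 2 settings is therefore no independent check of the difference. No whole-list share or ratio is given for the altered settings, so the whole-list values reported before are not a matching background for them. No paired analysis was possible because each group has 1 library and the results come from no test.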
